A study of Mus musculus with 6 samples.

Results

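This account covers 8 mouse genes of fibroblast growth factor (FGF) signalling, taken by symbol: the ligands Fgf8 and Fgf17, the receptor Fgfr1, the transcription factors Etv4 and Etv5, and the inhibitors Spry2, Spry4 and Dusp6. The set was fixed by gene name, with earlier results of these data known, and no measured value enters the rule. Every probe set annotated to exactly 1 of these symbols was taken, which gave 14 of the 19551 probe sets in the deposited table that are not array controls. All 8 genes had at least 1 probe set, and 9 probe sets, covering all 8 genes, had enough signal to be tested.

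The study measured RNA of anterior presomitic mesoderm (PSM), the unsegmented tissue that forms somites, from mouse embryos of strain background C57BL6/6J at embryonic day 8.75. The mutant genotype was R26R AC/AC;T-Cre and the control genotype R26R AC/AC. Each genotype had 3 pools of 3 PSMs, with 1 Affymetrix array per pool, and the labels call the pools biological replicates. Both genotypes carried the AC allele at ROSA26, on both copies as the name is written. The labels do not spell out AC, which is read here from outside knowledge as A-CREB, a protein that blocks DNA binding by CREB and its relatives. In T-Cre, the T (Brachyury) promoter drives Cre recombinase in the primitive streak and in mesoderm derived from it. No pool carried T-Cre without the AC allele, so effects of Cre and of AC cannot be told apart. The anterior part of the PSM was kept and the posterior part was cut away. The posterior end, where FGF ligands are most abundant, was thus meant to be left out. Of 24 probe sets for posterior PSM and tail bud genes, 21 still had enough signal to be tested. How fully that end was removed was not tested.

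As background, FGF ligands bind receptor tyrosine kinases with heparan sulphate as a cofactor, and the receptors switch on the RAS to ERK kinase cascade. ERK activity raises transcription of Etv4 and Etv5, and also of the Sprouty genes and Dusp6, which damp the same cascade. In the PSM, FGF activity is high at the posterior end and falls towards the somites, and this gradient helps to set where a somite boundary forms. Fgfr1 is the main FGF receptor of the PSM, and Spry2 and Dusp6 are known to oscillate with the mouse segmentation clock.

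Median signal per array lay between 519 and 535 in mutant pools and between 491 and 530.2 in control pools. The transcript of the ROSA26 locus, Gt(ROSA)26Sor, gave a signal of 62.9 to 98.1 in mutant pools and 356 to 865 in control pools, so its groups parted by label. Of PSM genes that check the tissue, Tbx6, Dll1 and Hes7 had tested probe sets, and Mesp2 lay below the filter on low signal. T and Msgn1 were in the posterior PSM and tail bud list used below, but no values of theirs are given here. The 6 arrays also parted by the 3' to 5' signal ratio of the dap spike-in, a bacterial transcript added before labelling. This ratio was 29.1, 24.0 and 12.8 in mutant pools 1, 2 and 3, and 26.8, 13.6 and 12.5 in control pools 1, 2 and 3. The 3 arrays above 15 (mutant 1, mutant 2 and control 1) are called high-ratio arrays here. A genotype difference among these arrays rests on control pool 1 alone, and one among the rest on mutant pool 3 alone, so such values have no test. The first principal component, with 44.8% of the variance, divided the arrays in the same way. Summed signal of 12 surface ectoderm probe sets was 37295 to 39251 in mutant pools and 25642 to 28655 in control pools, and that of 21 probe sets for posterior PSM and tail bud was 29387 to 39429 in mutant and 39331 to 42919.6 in control pools. The anterior PSM and somite list, the tissue sampled, summed to 7014 to 9742 in mutant and 11072 to 13971 in control pools. Of its 12 probe sets, 10 had a lower and 2 a higher mean log2 signal in mutant. In the limma fit described below, 1 of the 12 was called higher and 1 lower in mutant. That fit called 0.690% of all tested probe sets. Lateral and intermediate mesoderm markers summed to 3866 to 4802 in mutant and 6627 to 6933 in control pools. Of these 6 probe sets, 4 had a lower and 2 a higher mean log2 signal in mutant. Gut endoderm markers summed to 19784 to 20233 in mutant and 16758 to 17207 in control pools. Of the 11 gut endoderm probe sets, 8 had a higher and 3 a lower mean log2 signal in mutant. Some lists share genes, such as Epcam in surface ectoderm and gut endoderm, so the sums are not independent. Apart from posterior PSM, where mutant pool 3 reached the control range, none of the sums given so far overlapped between genotypes. Sums of neural tube markers did overlap, at 8050 to 11080 in mutant and 7806 to 10811 in control pools. So did those of notochord and floor plate markers, at 4503 to 6434 in mutant and 3757 to 4889 in control pools. Blood marker sums did not, at 103090 to 143183 in mutant and 73690 to 100968 in control pools. The part of all these tissues in the FGF values was not tested. In such bulk samples, fewer cells of a type and less RNA per cell cannot be told apart.

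Mutant PSM showed no FGF gene of the 8 with a change that passed the test. In their tested probe sets, Etv5 had 0.71 times the control signal and Spry2 1.28 times. In these the 3 mutant pools lay wholly on one side of the 3 control pools. The ligands Fgf8 and Fgf17, the receptor Fgfr1, and Etv4, Spry4 and Dusp6 had overlapping groups. Signals were compared as log2 of the signal plus 1 with limma, a linear model fitted over 11731 probe sets, and a Benjamini-Hochberg adjusted p under 0.05 was a call. Of the 9 tested probe sets, 0 were called, and the smallest adjusted p was 0.176, for Etv5. At an unadjusted p under 0.05 there were 2, Etv5 and Spry2. With array quality weights 1 of the 9 was called, Etv5, in a fit that called 10.2% of all tested probe sets, so this count too is no result about these genes. Over all tested probe sets 0.690% were called and 13.6% had an unadjusted p under 0.05, so counts of 0 and 2 among 9 are no result about these genes. The groups did not overlap in 2 of the 9, against 20.0% of all tested probe sets, with 1 lower (10.5% of all) and 1 higher (9.53% of all). The 9 differences, mutant minus control on the log2 scale, had a median of −0.09, with 6 below and 3 above 0, while all tested probe sets had a median of −0.0018.

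**Figure D1:**
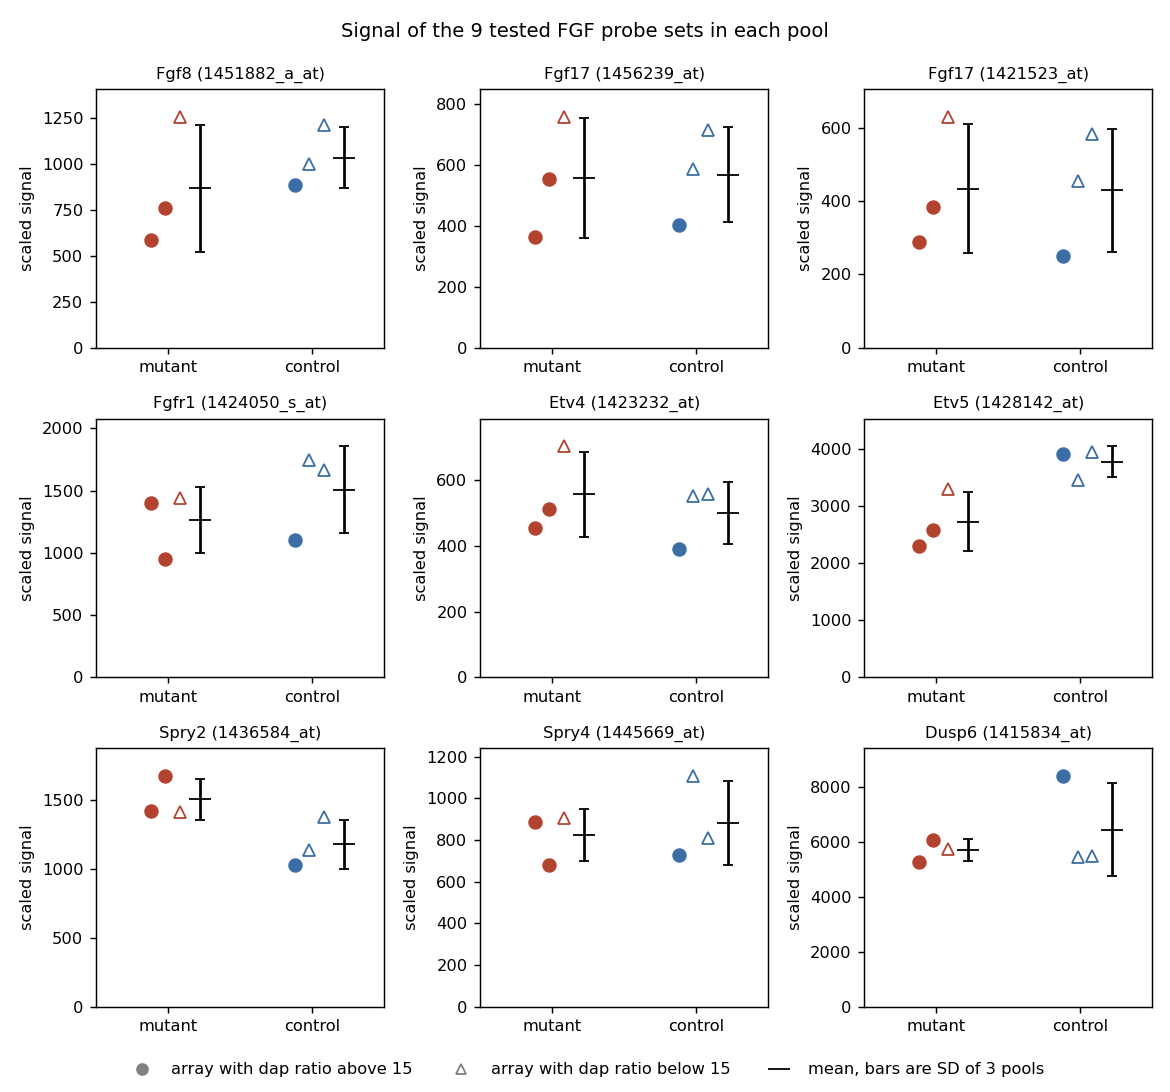
Scaled signal of the 9 tested FGF probe sets, on a linear axis from 0, with the 3 mutant pools left and the 3 control pools right in each panel. Filled circles are the high-ratio arrays, open triangles the other arrays, and the black bar is the mean with its SD. Mutant pools of Etv5 lie between 2294 and 3290.0, below all control pools, and in Fgf8 and Fgf17 the filled circles lie below the triangles in both genotypes.

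Among the ligands, Fgf8, the FGF most closely tied to the PSM gradient, gave a signal of 588, 761 and 1255 in mutant pools 1, 2 and 3, and 887, 1001 and 1212 in control pools 1, 2 and 3. Mutant pools 1 and 2 were the lowest of the 6 and mutant pool 3 was the highest, so the groups overlapped. Mean signal was 868 ± 346 in mutant and 1034 ± 165 in control (SD, n = 3 each). The log2 difference of −0.31 (SE 0.25, limma adjusted p = 0.645) has a 95% interval of −0.88 to 0.26, which spans 0.54 to 1.19 times the control signal. This interval does not show that Fgf8 was equal in the genotypes. Set against each other, the high-ratio arrays gave −0.41 and the remaining arrays 0.19. Without mutant pool 3 it was −0.61 (adjusted p = 0.147), and without mutant pool 1 it was −0.068.

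Fgf17, a close relative of Fgf8 that is also expressed in the tail bud, had 2 tested probe sets. The first gave 364, 555 and 758 in mutant pools 1, 2 and 3, and 403, 588 and 714 in control pools 1, 2 and 3. The second gave 288, 384 and 629 in mutant pools 1, 2 and 3, and 251, 453 and 584 in control pools 1, 2 and 3. In both probe sets the range of each genotype lay largely within that of the other. The log2 differences were −0.05 (SE 0.28) and 0.02 (SE 0.34), with limma adjusted p of 0.964 and 0.988. Their 95% intervals, −0.69 to 0.59 and −0.75 to 0.80, are wide, so they do not show equal levels. The change of Fgf8 minus that of the first Fgf17 probe set was −0.26 (SE 0.15), with no overlap between genotypes in the per-array difference (exact permutation p = 0.1, the smallest possible here, or 0.15 adjusted over 3 pairs). The sign of each Fgf17 difference turned when single pools were left out, with a range of −0.30 to 0.23 for the first and −0.32 to 0.28 for the second.

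Fgfr1 encodes the receptor through which PSM cells read FGF8. Its tested probe set gave 1399, 955 and 1438 in mutant pools 1, 2 and 3, and 1106, 1746 and 1667 in control pools 1, 2 and 3. Control pool 1 lay among the mutant pools, while the other control pools were above all of them. Mean signal was 1264 ± 269 in mutant and 1506 ± 349 in control (SD, n = 3 each), and the log2 difference was −0.25 (SE 0.21, limma adjusted p = 0.668). It was 0.063 among high-ratio arrays and −0.25 among the rest, and ranged from −0.46 without control pool 1 to −0.058 without mutant pool 2. The probe set is of a kind (_s_at) whose probes can match several transcripts. A second Fgfr1 probe set lay below the filter on low signal, with 166 to 184 in mutant and 127 to 232 in control pools and a log2 difference of −0.12 in the fit without the filter.

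**Figure D2:**
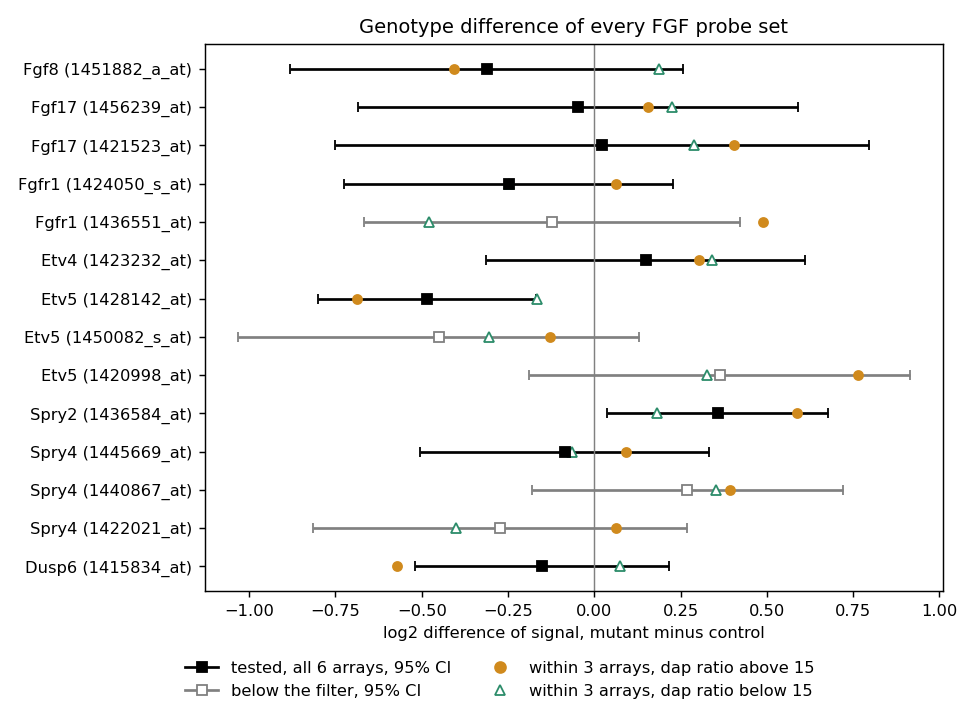
Log2 difference of signal, mutant minus control, for all 14 FGF probe sets, with 95% confidence intervals from limma (black, tested; grey, below the filter and fitted without it). Orange circles are the differences within the 3 high-ratio arrays and green triangles those within the other 3. Among tested probe sets the intervals of Etv5 (−0.80 to −0.17) and Spry2 (0.04 to 0.68) leave out 0, before any adjustment for the number of probe sets.

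Etv5, an ETS-family transcription factor induced by FGF signalling, gave a signal of 2294, 2581 and 3290.0 in mutant pools 1, 2 and 3, and 3916, 3461 and 3936 in control pools 1, 2 and 3. Every mutant pool was below every control pool, with the highest mutant pool 3 close to control pool 2. Mean signal was 2722 ± 513 in mutant and 3771 ± 269 in control (SD, n = 3 each). The log2 difference was −0.48 (SE 0.14, 95% interval −0.80 to −0.17), the limma adjusted p was 0.176, and 5.51% of all tested probe sets had a larger absolute difference. The two-sided exact permutation test over the 6 arrays gave p = 0.1, the smallest that 3 against 3 allows. It was −0.69 among high-ratio arrays and −0.17 among the rest. With 1 pool left out it ranged from −0.63 (without mutant pool 3, limma adjusted p = 0.0508, in a fit that called 1.27% of all tested probe sets) to −0.37 (without mutant pool 1). With array quality weights, which gave control pool 3 a weight of 4.29 and control pool 1 a weight of 0.315, Etv5 was called (−0.58, limma adjusted p = 0.0118), in a fit that called 1196 of all tested probe sets.

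The other 2 Etv5 probe sets lay below the filter and did not move together. One gave 187, 222 and 313 in mutant pools 1, 2 and 3 against 222, 401 and 373 in control pools 1, 2 and 3, a log2 difference of −0.45 (SE 0.26). The other gave 171, 146 and 198 in mutant pools 1, 2 and 3 against 92.6, 158 and 158 in control pools 1, 2 and 3, a log2 difference of 0.36 (SE 0.25). Their groups overlapped and neither passed the test without the filter, with limma adjusted p of 0.511 and 0.586.

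Of 7106 genes compared, 3 were taken as having the pattern most like Etv5 across the 6 arrays, by the mean absolute difference of mean-centred log2 signals. Frzb, a secreted inhibitor of Wnt ligands, was nearest at 0.038, with a signal of 1455 to 1918 in mutant and 2070.3 to 2421 in control pools. Brwd1, a bromodomain protein, followed at 0.049, and Naa40, an N-terminal acetyltransferase, at 0.055.

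Etv4, the closest relative of Etv5 among the 8, gave 456, 514 and 703 in mutant pools 1, 2 and 3, and 392, 551 and 560 in control pools 1, 2 and 3. Mutant pool 3 was the highest and control pool 1 the lowest, and the other 4 pools lay close together. The log2 difference was 0.15 (SE 0.21, limma adjusted p = 0.809), with 0.30 among high-ratio arrays and 0.34 among the rest. Without mutant pool 3 it was −0.03 and without control pool 1 −0.019. The change of Etv5 minus that of Etv4 was −0.63 (SE 0.20), and the per-array difference of the 2 genes did not overlap between genotypes. Its exact permutation p was 0.1, or 0.15 adjusted over the 3 pairs of relatives compared. Since 0.1 is the smallest p that 3 against 3 arrays allow, no pair could pass at 0.05.

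Spry2, a Sprouty protein that inhibits signalling from receptor tyrosine kinases, gave 1418, 1671 and 1413 in mutant pools 1, 2 and 3, and 1023, 1131 and 1373 in control pools 1, 2 and 3. All mutant pools were above all control pools, but mutant pool 3 and control pool 3 were close. Mean signal was 1500.5 ± 148 in mutant and 1176 ± 179 in control (SD, n = 3 each). The log2 difference was 0.36 (SE 0.14, 95% interval 0.04 to 0.68, limma adjusted p = 0.318). It was 0.59 among high-ratio arrays and 0.18 among the rest, and 0.26 to 0.48 with 1 pool left out. Spry2 was therefore above control where Etv5 was below it, although both are known FGF targets, and neither passed the test.

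Spry4, a second Sprouty gene, gave 888, 679 and 903 in mutant pools 1, 2 and 3, and 728, 1107 and 807 in control pools 1, 2 and 3. Mutant pool 2 was the lowest, control pool 2 the highest, and the rest were mixed. The log2 difference was −0.09 (SE 0.19, limma adjusted p = 0.887), and with 1 pool left out it ranged from −0.21 to 0.09. The 2 other Spry4 probe sets were below the filter, at 61.7 to 165 in mutant and 66.1 to 130 in control pools, and had log2 differences of 0.27 and −0.27. The change of Spry2 minus that of Spry4 was 0.44 (SE 0.30, exact permutation p = 0.3).

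Dusp6 encodes the phosphatase that removes phosphate from ERK in the cytoplasm. It gave 5257, 6049 and 5749 in mutant pools 1, 2 and 3, and 8389, 5439 and 5488 in control pools 1, 2 and 3. Control pool 1 stood alone, and the 5 other pools lay between 5257 and 6049. The log2 difference was −0.15 (SE 0.16, 95% interval −0.52 to 0.22, limma adjusted p = 0.749), and without control pool 1 it was 0.055, in a fit that called 1.07% of all tested probe sets. Control pool 1 also stood apart in the 5' probe set of the bioB hybridization control, at 531 against 62.4 to 108 in the other arrays, and the part of this in the Dusp6 value was not tested.

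Promoter sequence is shown for the 3 of the 8 genes matched in the RefSeq promoter table used (GRCm38.p6), which are Etv5, with 2 start sites, Spry2 and Dusp6. In the tested probe sets of Etv5 and Spry2 the genotypes did not overlap, and in that of Dusp6 they did. In the Etv5 probe sets below the filter they overlapped. Each line gives the 250 bases before a start site, 5′ to 3′ on the gene's strand, with the ETS core GGAA (TTCC on the other strand) in capitals.
Etv5, chr16:22439571-22439820, minus strand: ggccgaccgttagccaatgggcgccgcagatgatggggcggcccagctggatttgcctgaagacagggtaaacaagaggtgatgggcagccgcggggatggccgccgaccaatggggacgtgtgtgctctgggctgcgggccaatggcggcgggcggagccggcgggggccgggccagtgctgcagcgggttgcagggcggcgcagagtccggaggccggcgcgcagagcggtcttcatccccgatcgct
Etv5, chr16:22438369-22438618, minus strand: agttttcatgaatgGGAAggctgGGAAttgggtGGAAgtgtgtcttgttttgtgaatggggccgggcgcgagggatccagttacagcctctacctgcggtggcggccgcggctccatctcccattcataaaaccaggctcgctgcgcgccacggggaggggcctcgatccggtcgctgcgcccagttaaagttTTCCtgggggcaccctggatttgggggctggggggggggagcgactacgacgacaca
Spry2, chr14:105896820-105897069, minus strand: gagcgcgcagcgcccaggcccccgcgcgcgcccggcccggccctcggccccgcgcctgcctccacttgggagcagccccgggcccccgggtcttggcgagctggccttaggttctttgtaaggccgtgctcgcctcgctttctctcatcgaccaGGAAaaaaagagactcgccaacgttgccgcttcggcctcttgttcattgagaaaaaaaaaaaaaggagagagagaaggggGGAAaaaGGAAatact
Dusp6, chr10:99262981-99263230, plus strand: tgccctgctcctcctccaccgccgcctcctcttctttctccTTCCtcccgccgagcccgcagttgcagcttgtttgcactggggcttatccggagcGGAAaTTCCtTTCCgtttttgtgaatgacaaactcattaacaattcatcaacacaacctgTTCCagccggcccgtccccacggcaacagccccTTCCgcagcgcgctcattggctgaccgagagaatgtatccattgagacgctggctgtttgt
The core was found 0 and 4 times before the 2 Etv5 starts, 3 times before the Spry2 start and 6 times before the Dusp6 start, and 93.4% of the 32851 promoter windows of this length in the table hold at least 1. The longer ETS site CCGGAA, which contains the core and lies in 12.03% of windows, was in 0 of the 4 windows on either strand. The cyclic AMP response element TGACGTCA, the site that CREB binds (1.55% of windows), and its shorter form TGACG (17.8% of windows, the whole site included) were also in 0 of the 4. These matches describe the letters of the windows and say nothing of binding.

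Several of these genes also parted by array set. In 5 of the 9 tested probe sets, those of Fgf8, Fgf17 (both), Fgfr1 and Etv4, all 3 high-ratio arrays lay below the other 3, and in 0 of 9 above them. Over all tested probe sets, 16.3% had the high-ratio arrays wholly lower and 12.6% wholly higher, so the 0 of 9 is no result about these genes. Within the mutant pools, the log2 differences, high-ratio minus other arrays, were −0.91 for Fgf8, −0.75 and −0.92 for Fgf17 and −0.54 for Etv4. Within the control pools the same differences were −0.31 for Fgf8, −0.68 and −1.03 for Fgf17 and −0.50 for Etv4. In Fgf17 these array differences were larger in both genotypes than the genotype difference of any of the 9. Dusp6 went the other way in control (0.62) and had −0.028 in mutant, and Etv5 had −0.44 in mutant and 0.085 in control. Probe sets for posterior PSM and tail bud had a median of −0.36 within mutant and 0.04 within control, and their part in these values was not tested. Each of these differences rests on 3 arrays of 1 genotype. Mutant pool 3 stands alone on one side within mutant, and control pool 1 within control. With the array split as a term of the model, 0 of the 9 were called, with a smallest adjusted p of 0.0608 (Etv5, log2 difference −0.43), in a fit that called 4.73% of all tested probe sets.

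**Figure D3:**
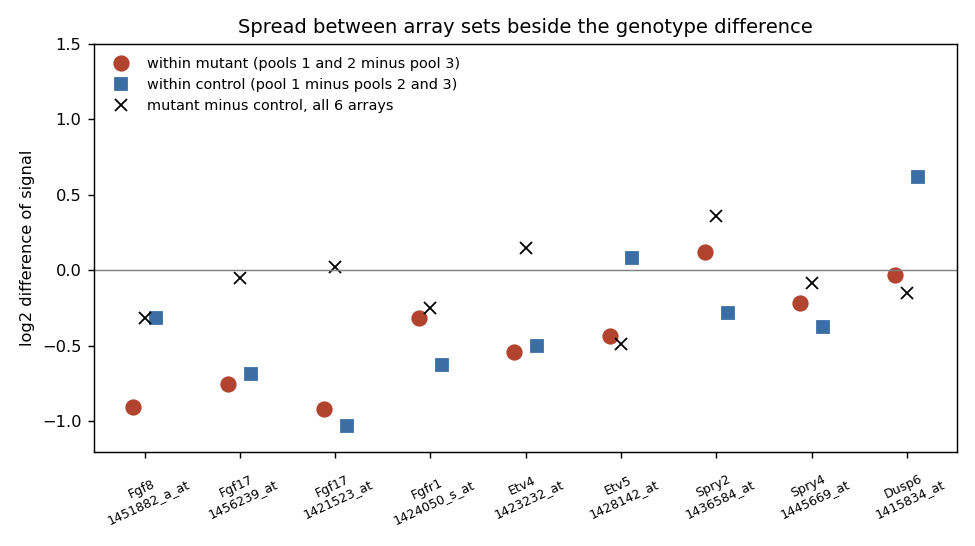
Log2 difference of signal between high-ratio and other arrays within the mutant pools (red circles) and within the control pools (blue squares), beside the genotype difference over all 6 arrays (black crosses), for the 9 tested FGF probe sets. Both Fgf17 probe sets have array differences between −1.03 and −0.68 in the 2 genotypes and genotype differences within 0.05 of 0.

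The wider FGF and ERK pathway was taken as 5 lists by role, with 116 probe sets for 64 genes, of which 71 probe sets for 48 genes were tested. Of these 71, 1 rose, 0 fell and 70 did not pass, against 0.690% called of all tested probe sets (0.247% higher, 0.443% lower). Their median log2 difference was −0.05, with 29 above 0. The 1 that rose was Sdc4, a heparan sulphate proteoglycan of the cell surface, which gave 998, 848 and 868 in mutant pools 1, 2 and 3 and 499, 446 and 442 in control pools 1, 2 and 3. Every mutant pool was above every control pool. The log2 difference was 0.97 (SE 0.13, limma adjusted p = 0.0153), or 1.95 times the control signal (95% interval 1.59 to 2.41), with 0.88 among high-ratio arrays and 0.97 among the rest. The second Sdc4 probe set, below the filter, had 138 to 234 in mutant and 96.9 to 116 in control pools, a log2 difference of 0.83. The Sdc4 call was lost without mutant pool 1 (limma adjusted p = 0.129), mutant pool 2 (0.0747), control pool 2 (0.0783) or control pool 3 (0.0887). In that order, these fits called 24, 29, 27 and 26 of all tested probe sets, against 81 in the main fit. Sdc4 was also called with array quality weights (limma adjusted p = 0.000626) and with the array split in the model (0.00117). Those fits called 10.2% and 4.73% of all tested probe sets.

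Of 4 tested probe sets of other FGF ligands, 0 passed. Fgf15, a ligand of the embryonic neural tube and gut, had 411 to 668 in mutant and 314 to 396 in control pools, a log2 difference of 0.63 (SE 0.21, limma adjusted p = 0.225). Fgf13, an intracellular FGF homologue, had 0.13, and Fgf9 had −0.17. Fgf3, named after its values were seen, lay below the filter: one probe set gave 191 to 374 in mutant and 429 to 459 in control pools, a log2 difference of −0.88 (limma adjusted p = 0.157 without the filter), and the other gave −0.11.

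Of 16 probe sets of other receptors and of heparan sulphate genes, Sdc4 was the 1 that passed. Fgfr2, a receptor of epithelia, had 762 to 827 in mutant and 518 to 610.3 in control pools, a log2 difference of 0.45 (SE 0.13, limma adjusted p = 0.176). Gpc4, a glypican, had 0.53 and 0.16 in its 2 probe sets, and Gpc3, another glypican, had −0.20. The groups of Fgfr2 did not overlap, and surface ectoderm probe sets were higher in mutant beside it, 12 of 12 with a median log2 difference of 0.59. The part of ectoderm in the Fgfr2 and Sdc4 values was not tested.

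Of 23 probe sets of adaptors and the RAS to ERK cascade, 0 passed, 7 were above 0, and the median log2 difference was −0.15. Nras, a RAS GTPase, had −0.43, −0.33 and −0.05 in its 3 probe sets (smallest limma adjusted p = 0.212). Sos2, a RAS exchange factor, had −0.26, and Map2k2, the kinase MEK2, had 0.32 in one probe set and −0.22 in the other. The groups did not overlap in 8 of the 23, 6 lower and 2 higher in mutant, against 20.0% of all tested probe sets.

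Of 12 probe sets of other feedback inhibitors, 0 passed, with a median of −0.04. Dusp5, a nuclear ERK phosphatase, had 409 to 580.3 in mutant and 243 to 413 in control pools (log2 difference 0.61, SE 0.22, limma adjusted p = 0.270). Spred2, an inhibitor of RAS signalling, had 1651 to 2694 in mutant and 2550.3 to 3143 in control pools, a log2 difference of −0.46. The probe sets of Spred1, a relative of Spred2, differed from each other, with −0.45, −0.078 and 0.015 among the tested ones.

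Of 16 probe sets of other ERK and ETS targets, 0 passed, with a median of −0.11. The ETS factors Ets2 and Ets1 had −0.53 (SE 0.16, limma adjusted p = 0.189) and −0.46 (adjusted p = 0.281) in their leading probe sets, and Elk3, a further ETS factor, had −0.32. Ets1 is also an endothelial gene and is in the endothelial list used here, which is thus not independent of it. In that list 11 of 11 tested probe sets were below 0, with a summed signal of 7733 to 11611 in mutant and 13915 to 15523 in control pools. The part of endothelium in these values was not tested.

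Egr1, an immediate early gene that ERK and CREB both induce, lay below the filter on low signal and was named after its values were seen. It gave 399, 379 and 333 in mutant pools 1, 2 and 3, and 77.5, 62.1 and 56.8 in control pools 1, 2 and 3. Of the 16 tested probe sets in its list, 11 were below 0 and 5 above. The fit without the filter called 109 of 19551 probe sets. In it the log2 difference of Egr1 was 2.49 (SE 0.20, limma adjusted p = 0.000212), or 5.62 times the control signal. This ratio rests on low control signals. No FGF gene of the 8 came near this size.

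**Figure D4:**
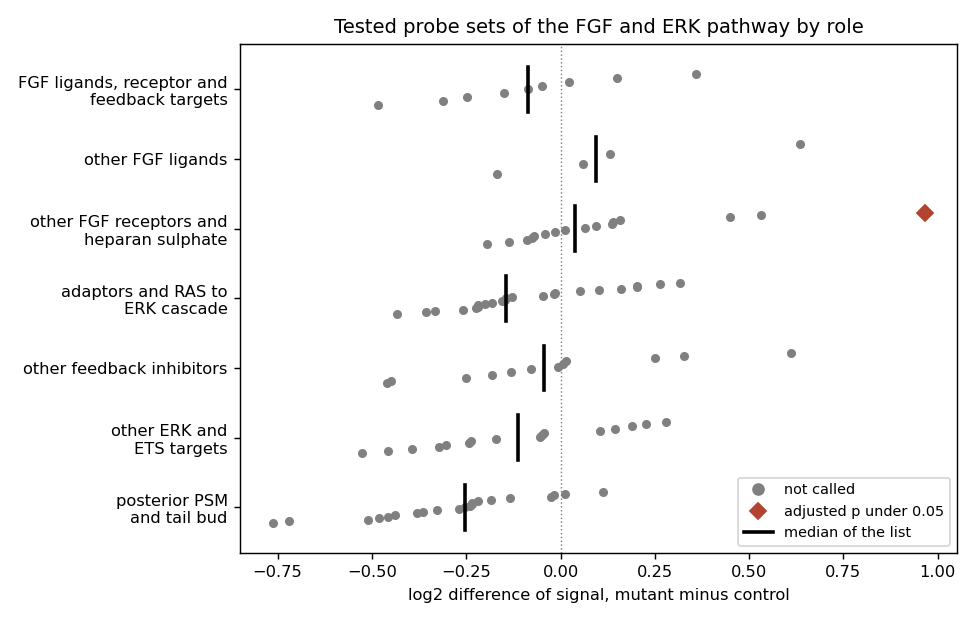
Log2 difference of signal, mutant minus control, for every tested probe set of the 8 FGF genes, of the 5 wider lists and of posterior PSM and tail bud genes. Grey points were not called, the red diamond (Sdc4, 0.97) had an adjusted p under 0.05, and black bars are list medians, which run from −0.25 for posterior PSM to 0.09 for other FGF ligands.

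Posterior PSM and tail bud genes, whose domain overlaps that of Fgf8 and Fgf17, had 0 of 21 tested probe sets that passed. Of the 21, 19 were below 0, with a median log2 difference of −0.25. Over all tested probe sets 0.690% were called and 50.4% were below 0. The groups did not overlap in 7 of the 21, with 7 lower and 0 higher in mutant, against 10.5% lower and 9.53% higher of all. Tbx6, a T-box factor needed for paraxial mesoderm, had −0.76 (limma adjusted p = 0.102), and Wnt3a, a Wnt ligand of the tail bud, had −0.51 (adjusted p = 0.297). The medians were −0.37 among high-ratio arrays and −0.11 among the rest. The FGF genes' median of −0.09 became 0.09 among high-ratio arrays and 0.18 among the rest, and each of these 2 values rests on 1 array of a genotype, control pool 1 in the first and mutant pool 3 in the second.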

How the data were processed

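The authors deposited 1 linear intensity per probe set and array, already scaled. Affymetrix Expression Console and MAS5 are listed, without versions, in the submitters' processing notes. How the signals were scaled and why the table holds 19606 probe sets is not given in the sources used here. Of these, 55 are array controls. The platform annotation gave 1 symbol to 17348 of the other 19551 probe sets, several to 494 and none to 1709. Signals plus 1 were logged (log2), probe sets below the 40th percentile of mean log2 signal (geometric mean 349) were left out, and 11731 were fitted with limma 3.58.1 in R 4.3.3 (genotype, empirical Bayes with intensity trend, two-sided, Benjamini-Hochberg adjustment). Probe sets below the filter were given values from a fit without it. The number of arrays limits the precision, and p-values measure the spread between these pools. The fit was tested on simulated data. Residual r of arrays with equal replicate numbers was 0.20, −0.45 and 0.37. So few values cannot show whether the numbers pair the arrays, and the main fit used no pairing. The members, lists, naming rule and alternatives were chosen with earlier results of these data known. Genes named were the 8 members, called genes and up to 3 more of smallest p per pathway list, up to 4 per marker list, Gt(ROSA)26Sor, and the 3 genes most like the member with the largest difference. Alternatives were other normalizations, offsets, filters, weights, terms, thresholds, probe set choices and leaving out each array. Coordinates are given only for the promoter windows (GRCm38.p6).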

Additional observations from a re-analysis of the deposited data

How the results depend on the processing

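Of the 19 alternatives, 18 called 0 of the FGF probe sets, and array quality weights called 1, Etv5. All alternatives that tested them kept the direction of 4 of the 9 tested probe sets (Fgf8, Fgfr1, Etv5 and Spry2), but their sizes moved: Fgf8 ran from −0.62 (array weights) to −0.068, Fgfr1 from −0.46 to −0.058, Etv5 from −0.63 to −0.37 and Spry2 from 0.20 (array weights) to 0.48. With the split Fgf8 was −0.11 and Fgfr1 −0.091. Alternatives that changed only the filter, threshold, intensity trend, replicate block or probe set choice left each estimate unchanged. They could not turn a direction. Within array sets, Fgf8 was 0.19 outside the high-ratio arrays and Fgfr1 0.063 among the high-ratio arrays, each against the main direction. The second Fgf17 probe set turned to −0.032 with quantile normalization, −0.0093 with median centring and −0.51 with array weights, and the first to 0.19 with the spike-in ratio split. Etv4 turned to −0.080 with array weights, and Spry4 to 0.013 with the split. With 1 array left out, the values ran from −0.32 to 0.28 (second Fgf17), −0.30 to 0.23 (first), −0.031 to 0.28 (Etv4), −0.21 to 0.091 (Spry4) and −0.26 to 0.055 (Dusp6), and the counts from 0 to 0 (the 8 genes), 0 to 1 (wider pathway) and 24 to 149 (all probe sets). The wider pathway count was 2 without the filter, where more probe sets were tested, 0 at the 60th percentile, where fewer were, 5 with array weights and 4 with the split. The count over all probe sets was 48 at the 60th percentile, 243 at adjusted p under 0.1, 123 with 1 probe set per gene, 1196 with array weights and 555 with the split, and the cause of the last 2 was not tested. With replicate number as a block, the counts were 0, 1 and 120. Own-number partners correlated best for 2 of the 6 arrays.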
